A study of Homo sapiens with 6 samples.

Results

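The 152 well expressed long intergenic non-coding RNAs (lincRNAs) of H69 cells were compared between cells given TGF-beta and cells given vehicle. A gene was included when the deposited table typed it as lincRNA, placed it on an autosome outside alternate or patch sequences, and gave it a mean of at least 200 reads over the 6 libraries. The rule kept 152 of the 7469 autosomal lincRNAs, in a table of 64253 genes. They were thus selected on their mean read count, so their levels are a description. The difference between treatments was not part of the rule, but a mean over all 6 libraries can be reached through 1 condition: 126 lincRNAs had a mean of at least 200 reads in each condition, 23 in vehicle only and 3 in TGF-beta libraries only. These are raw reads, not scaled to library depth, which was lower on average in the TGF-beta libraries. H69 is an established, immortalised human line of cholangiocytes, the epithelium of the bile ducts. Cultures at passages 30 to 32 were grown in the medium used for this line, and received recombinant human TGF-beta at 10 ng/ml or vehicle for 16 h, with 3 libraries per condition. All 6 libraries come from this 1 line, the make-up of the vehicle is not stated, and the labels do not say that replicates were separate cultures. P-values therefore measure the spread between these libraries, which may be technical.

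LincRNAs are RNA polymerase II transcripts that lie between protein-coding genes and carry no long reading frame. Some act in the nucleus, where they scaffold nuclear bodies or recruit chromatin and splicing proteins. Others sequester RNA-binding proteins in the cytoplasm, give rise to small RNAs from their introns, or owe their effect on a neighbouring gene to the act of being transcribed. TGF-beta signals through receptor kinases to SMAD transcription factors, and in epithelial cells it is known for inducing matrix genes and epithelial-mesenchymal transition (EMT).

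Library totals lay between 37205862 and 54160521 reads in genes, so 1 CPM after TMM scaling (counts scaled to library size, used for all values by library below) stood for 35.8 to 56.2 reads. By library this was 42.0, 56.2 and 51.9 reads in vehicle and 35.8, 45.4 and 38.8 in TGF-beta libraries. At an equal CPM the read minimum was thus harder to meet with TGF-beta. Among cholangiocyte markers, KRT7 lay between 1499 and 2980 CPM and KRT19 between 263 and 456, EPCAM and SOX9 were at most 25.3, and CFTR had no read. The summed hepatocyte markers reached at most 0.101 CPM. The 4 fibroblast or stellate markers summed to 69.8 to 83.0 CPM in vehicle and 129.7 to 139.0 in TGF-beta libraries, a rise carried by PDGFRB alone (62.3 to 75.1 against 125.1 to 134.1). PDGFRA was lower, at 6.40 to 7.64 against 3.82 to 4.12 CPM, DCN was at most 1.0 and LUM at most 0.0751, with 0 in the TGF-beta libraries. The 2 endothelial markers summed to at most 2.24 CPM, and of the leukocyte markers CD68 was at 8.49 to 11.0 and PTPRC at most 0.141. The part of these genes in the lincRNA results was not tested, and in bulk RNA fewer cells with a transcript cannot be told apart from less of it per cell. Vehicle replicate 1 stood apart from the other vehicle libraries for 16 of the 152 lincRNAs, lying at least 1.3-fold above their mean for 6 and as far below it for 10, against 3 lincRNAs for vehicle replicate 2 and 6 for replicate 3. Changes described below whose call rests on this library are given with and without it.

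The lincRNAs were a small share of the transcriptome and 3 of them held much of it. Together they took 0.358 ± 0.0119% of the reads in vehicle and 0.352 ± 0.0104% in TGF-beta libraries (SD, n = 3), and NEAT1, MALAT1 and LINC00657 supplied 35.8% of that share. Levels per length, as the deposited RPKM (reads scaled to gene length and library size), ran from 0.0584 to 100.2 with a median of 1.74. That median lay below the 3.44 of protein-coding genes passing the same read minimum. 28 of the lincRNAs reached an RPKM of 5, and 44 stayed under 1. The lowest value belonged to a model of 267372 bases, the longest among them, against a median length of 2747.5 bases. By Ensembl identifier 134 of the 152 were in GENCODE 29, where 117 were still typed lincRNA, 4 were protein-coding and 6 were transcribed pseudogenes. One of the 4 is LINC00998, now SMIM30, which encodes a small membrane protein. Among the matched genes, 28 had a single exon block and the median was 3 blocks.

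RP11-3P17.5 had the highest level per length, with 106 ± 8.8 RPKM in vehicle and 94.2 ± 2.1 in TGF-beta libraries (SD, n = 3). Its span overlaps that of RP11-3P17.3, which had a mean of 93.4 CPM. Next came RP3-430N8.10, at 31.1 ± 0.33 and 32.9 ± 1.1 RPKM. It and RP3-430N8.11 lie within the span of TUG1, a much studied lincRNA with a mean of 318 CPM. Both were called higher, by 0.17 and 0.19 on the log2 scale, and the first call was lost in 5 of the 6 fits that left out 1 library (adjusted p = 0.0527 to 0.132), all but that without vehicle replicate 1, and the other without replicate 2 of either condition (adjusted p = 0.0694 and 0.062). With library totals alone the changes were 0.04 and 0.06 (adjusted p = 0.542 and 0.381). Limma on RPKM called neither, and DESeq2 did not call RP3-430N8.10 (adjusted p = 0.0638). LINC00657, better known as NORAD, which binds PUMILIO proteins in the cytoplasm, followed at 26.2 ± 0.18 and 21.4 ± 0.86 RPKM. MALAT1, an abundant RNA of nuclear speckles, had 22.3 ± 2.3 and 17.1 ± 2.1 RPKM. NEAT1, the scaffold of paraspeckles, drew the most reads but, at 9.64 ± 0.69 and 11.6 ± 0.76 RPKM, stood lower per length. HIF1A-AS1, RP11-203M5.8 and CTD-2207P18.1 completed the 8 highest, and each lies inside or across a more abundant protein-coding gene. No source used here gives the strand setting of the read counting, so reads of such pairs cannot be told apart.

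**Figure D1:**
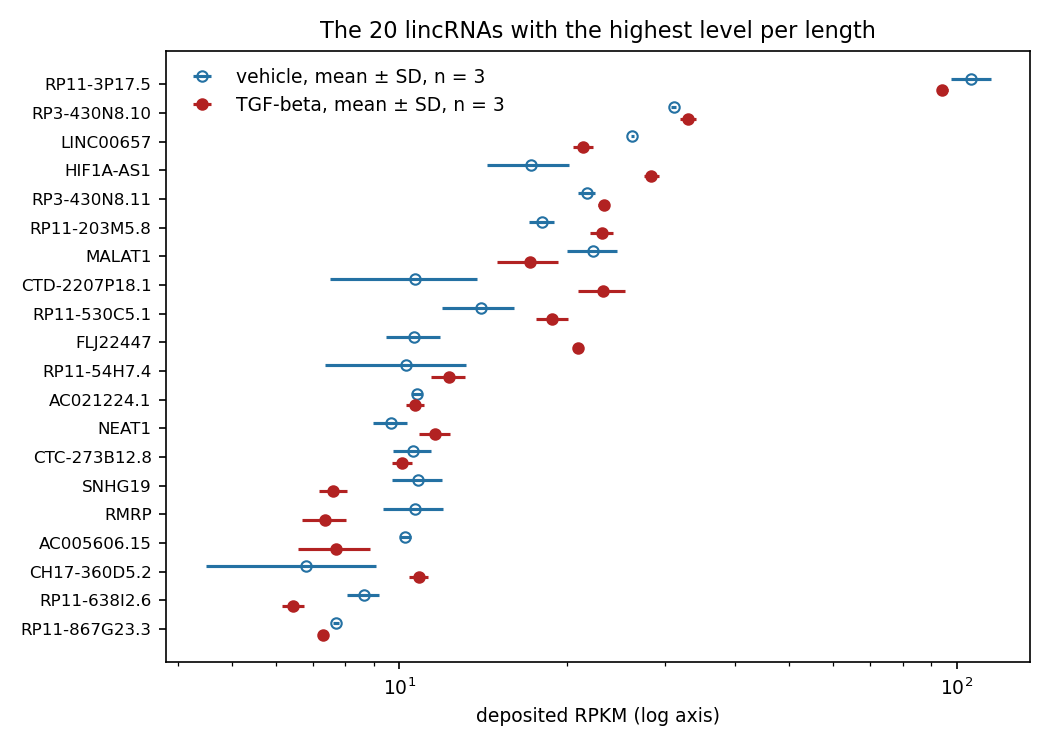
Deposited RPKM, on a log axis, of the 20 lincRNAs with the highest mean level; open blue points are vehicle and filled red points TGF-beta libraries, each the mean with bars of ± 1 SD (n = 3). RP11-3P17.5 stands alone near 100.2 RPKM on average, and HIF1A-AS1, CTD-2207P18.1 and FLJ22447 have TGF-beta values to the right of vehicle.

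TGF-beta moved these RNAs in both directions. Of the 152, 39 were higher and 36 lower at an adjusted p under 0.05 in edgeR, and 77 were not called. The share called was 49.3%, beside 40.1% of all 20992 genes tested and 47.6% of the 12984 genes with a mean of at least 200 reads, so it lay near that of equally well covered genes. By direction, 25.7% of the lincRNAs were higher and 23.7% lower, against 19.7% and 20.4% of all genes tested and 24.2% and 23.5% of those with at least 200 reads. The median log2 fold change of TGF-beta over vehicle was -0.00 for the lincRNAs and -0.01 for all genes tested. Changes of at least 2-fold were called for 11 lincRNAs upward and 5 downward. These were 10.5% of the lincRNAs, against 8.37% of all genes tested and 5.38% of genes with at least 200 reads on average. Of the 126 lincRNAs with at least 200 reads in each condition, 10 rose and 1, LINC00261, fell by at least 2-fold, or 8.73%. This minimum was harder to meet in the TGF-beta libraries, which were less deep on average. The part of depth in the lean of these 126 towards rises was not tested. The other large falls, RP11-215G15.5, SFTA1P, MIR99AHG and LINC00472, met the minimum through the vehicle libraries, where they are high. The median absolute log2 fold change was 0.25 for the lincRNAs, 0.22 for all genes tested and 0.17 for genes with at least 200 reads. The other 910 tested lincRNAs, with fewer reads, were called in 30.8% of cases. CPM of vehicle and TGF-beta libraries did not overlap for 90 lincRNAs, or 59.2%, against 52.3% of all genes tested and 59.4% of those with at least 200 reads. The 90 include all 75 called lincRNAs, so a lack of overlap adds nothing to a call. Scaling to library totals alone, which shifts the median of all genes by -0.14 on the log2 scale, gave 28 higher and 53 lower. It turned the sign of 23 lincRNAs, of which 0 were called. Without vehicle replicate 1 the counts were 48 higher and 44 lower.

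**Figure D2:**
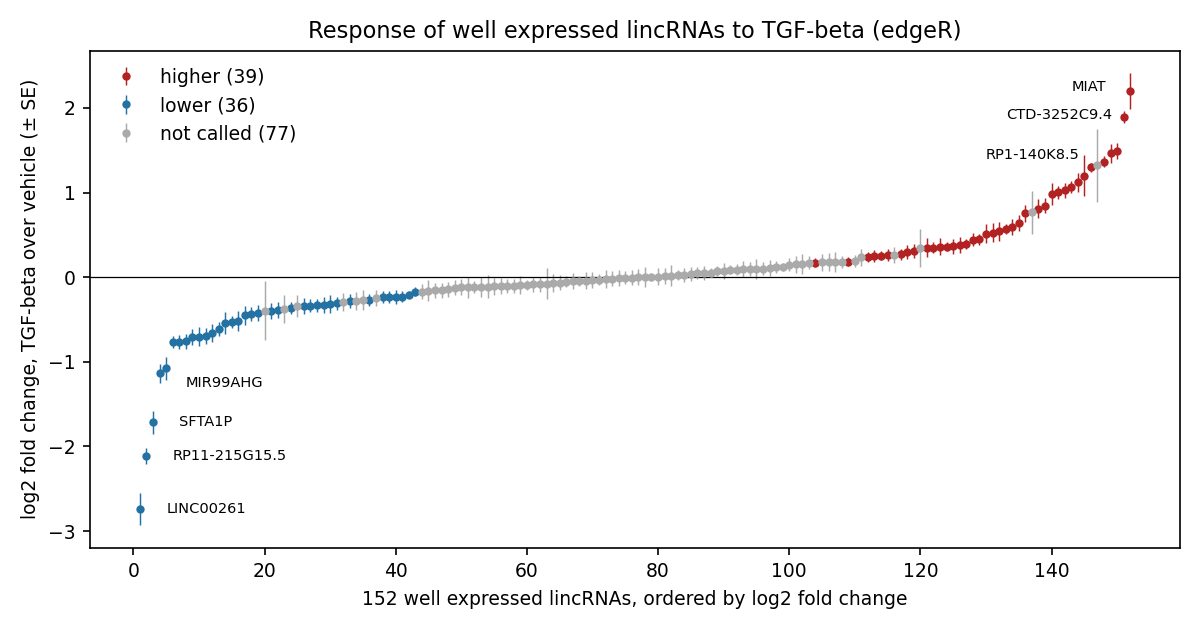
Log2 fold change of TGF-beta over vehicle for the 152 lincRNAs in rising order, with bars of ± 1 SE from the edgeR fit; red is called higher (39), blue called lower (36) and grey not called (77). LINC00261 lies lowest at -2.74 and MIAT highest at 2.20, and RP1-140K8.5, with a wide bar, is not called at 1.32.

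MIAT rose the most. It is a spliced nuclear RNA first linked to myocardial infarction and known to associate with splicing factors. Its gene lies at chr22:26646428-26676475 (hg38, plus strand) and the GENCODE 29 models of it merge into 12 exon blocks. MIAT stood at 3.60, 6.36 and 6.38 CPM in vehicle replicates 1, 2 and 3, and at 24.3, 27.2 and 24.2 CPM in the TGF-beta replicates. The conditions did not overlap, and the lowest value was that of vehicle replicate 1. The log2 fold change was 2.20 ± 0.21 (SE, adjusted p = 0.000485), and 1.99 without vehicle replicate 1. Its nearest protein-coding gene, the lens crystallin gene CRYBA4, had too few reads to be tested. Per length MIAT remained modest after the rise, at 0.907 ± 0.063 RPKM (SD, n = 3).

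CTD-3252C9.4, now named MIR23AHG, is a single-block transcript next to the miR-23a, miR-27a and miR-24-2 hairpins at chr19:13834516-13836289. Its values were 7.58, 7.79 and 8.81 CPM in vehicle and 28.3, 30.6 and 30.9 CPM in TGF-beta libraries. The change was 1.89 ± 0.07 (SE, adjusted p = 2.42e-08), with a small spread in both conditions. RP11-54A9.1, now LNCOG, went from 2.67, 3.06 and 3.01 CPM to 8.59, 8.31 and 7.79 CPM, a log2 fold change of 1.49. It was 1 of only 3 lincRNAs that reached 200 reads on average with TGF-beta but not with vehicle. The other two were LINC01138 (0.85) and CTA-445C9.15 (0.52 on the same scale).

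CASC15 and LINC00511, long multi-exon genes described in cancer and EMT work, rose together with LINC00941, another RNA of that literature. CASC15 (chr6:21664772-22214505, plus strand) had 6.70, 5.07 and 4.86 CPM in vehicle and 15.7, 14.6 and 15.3 CPM in TGF-beta libraries, so its lowest TGF-beta value was above every vehicle value. Its log2 fold change was 1.46 ± 0.11 (SE, adjusted p = 3.99e-06). LINC00511 (chr17:72323123-72640472, minus strand) had 20.1, 17.7 and 16.5 CPM against 47.2, 46.5 and 46.3 CPM, a change of 1.37 ± 0.07 (SE, adjusted p = 1.49e-07). LINC00941 went from 3.84, 5.09 and 4.41 CPM to 9.17, 9.70 and 10.2 CPM (log2 fold change 1.12). Of the 9 lincRNAs on a list of RNAs described in TGF-beta or EMT work, 4 were higher, namely these 3 and NEAT1, and 2 were lower, LINC00261 and LINC00657. The list's median was 0.15, and the share called among all genes with at least 200 reads was 47.6%. MALAT1 and LINC00152 were among the 3 not called.

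Of the 55 lincRNAs that overlap a protein-coding span, 17 were higher, 13 lower and 25 not called, with a median log2 fold change of 0.02 beside -0.01 for all genes tested. The share called was 54.5%, against 40.1% of all genes tested and 47.6% of those with at least 200 reads. CTD-2207P18.1 lies within LTBP2, which encodes a latent TGF-beta binding protein of the matrix. It had 8.29, 14.5 and 14.9 CPM in vehicle and 26.2, 29.1 and 32.0 CPM in TGF-beta libraries, with vehicle replicate 1 lowest. Its log2 fold change was 1.20 ± 0.24 (SE, adjusted p = 0.0152), and 0.98 without that library. LTBP2 itself changed by 1.30 and had a mean of 903 CPM, and since strand is not known its reads may be counted in the lincRNA.

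On chromosome 14 a run of 3 lincRNAs rose as a block, and HIF1A-AS1 among them overlaps HIF1A, the oxygen-regulated transcription factor gene. RP11-47I22.2 (chr14:61556313-61570653, minus strand), now LINC01303, had 8.15, 7.15 and 6.30 CPM in vehicle and 14.8, 15.0 and 14.1 CPM in TGF-beta libraries. FLJ22447 (chr14:61570540-61658696, plus strand), now LINC03033, had 72.3, 62.0 and 58.5 CPM against 136, 133 and 134 CPM, the most reads among the 11 lincRNAs that rose 2-fold. HIF1A-AS1 (chr14:61681041-61695823, minus strand) had 30.1, 25.3 and 21.4 CPM against 43.5, 46.2 and 44.5 CPM. No TGF-beta value of the 3 overlapped a vehicle value. The log2 fold changes were 1.03 ± 0.09, 1.06 ± 0.07 and 0.81 ± 0.11 (SE), with adjusted p of 1.21e-05, 1.94e-06 and 0.000981. HIF1A rose by 0.65 (adjusted p = 8.67e-05) from 750 ± 84 to 1177 ± 28 CPM (SD, n = 3). For RP11-47I22.2 and FLJ22447 the nearest protein-coding gene was RP11-47I22.4, whose span overlaps both and which rose by 1.09 (adjusted p = 5.43e-05). RP11-47I22.2 and FLJ22447 also overlap each other at their starts. Part of the reads of these genes, as of HIF1A-AS1 and HIF1A, may therefore be shared.

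LINC00261 fell furthest. It is an endoderm RNA made beside FOXA2, the pioneer transcription factor of liver and foregut, and lies at chr20:22547671-22578642 (minus strand) with 2363 bases between the spans. LINC00261 had 54.4, 81.1 and 81.3 CPM in vehicle and 11.5, 10.3 and 10.7 CPM in TGF-beta libraries. Vehicle replicate 1 was the lowest of its group and still above every TGF-beta library. The log2 fold change was -2.74 ± 0.19 (SE, adjusted p = 0.000191), and -2.91 without vehicle replicate 1. FOXA2 fell by 1.0 on the same scale (adjusted p = 1.44e-06), from 32.3 ± 2.2 to 16.2 ± 0.87 CPM (SD, n = 3).

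RP11-215G15.5 (chr5:10654220-10657816) was second, at 18.8, 17.5 and 18.5 CPM in vehicle and 4.87, 3.95 and 3.84 CPM in TGF-beta libraries. Its change of -2.12 ± 0.09 (SE, adjusted p = 5.98e-08) stood beside -1.92 for ANKRD33B, which ends 4024 bases away. SFTA1P, a pseudogene transcript of the surfactant-associated family known from lung, had 6.93, 9.51 and 9.56 CPM against 2.83, 2.56 and 2.58 CPM. Its log2 fold change was -1.71 ± 0.14 (SE, adjusted p = 4.89e-06), and CELF2, a splicing regulator gene 210316 bases off, fell by 1.31. MIR99AHG, the chromosome 21 host of the miR-99a cluster (chr21:16070522-16627397), had 8.01, 8.14 and 8.48 CPM in vehicle and 4.39, 3.68 and 3.17 CPM in TGF-beta libraries. That was a change of -1.13 ± 0.11 (SE, adjusted p = 2.62e-05), without overlap. LINC00472 had 7.29, 10.2 and 10.5 CPM against 4.22, 4.72 and 4.38 CPM, a change of -1.08.

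The next falls were under 2-fold. BAIAP2-AS1, which starts beside the cytoskeletal adaptor gene BAIAP2, changed by -0.77, as did AP001258.4, now FAM111A-DT. LINC00883, now DUBR, changed by -0.76. RP11-430B1.2, now CERNA1, changed by -0.70 and lies within MYO5C, a myosin gene with a mean of 99.0 CPM that fell by 0.94. LINC00467, reported to encode a small mitochondrial protein, also changed by -0.70. For these 5, values of vehicle and TGF-beta libraries did not overlap, which was a condition for naming them and held for all 75 called lincRNAs.

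**Figure D3:**
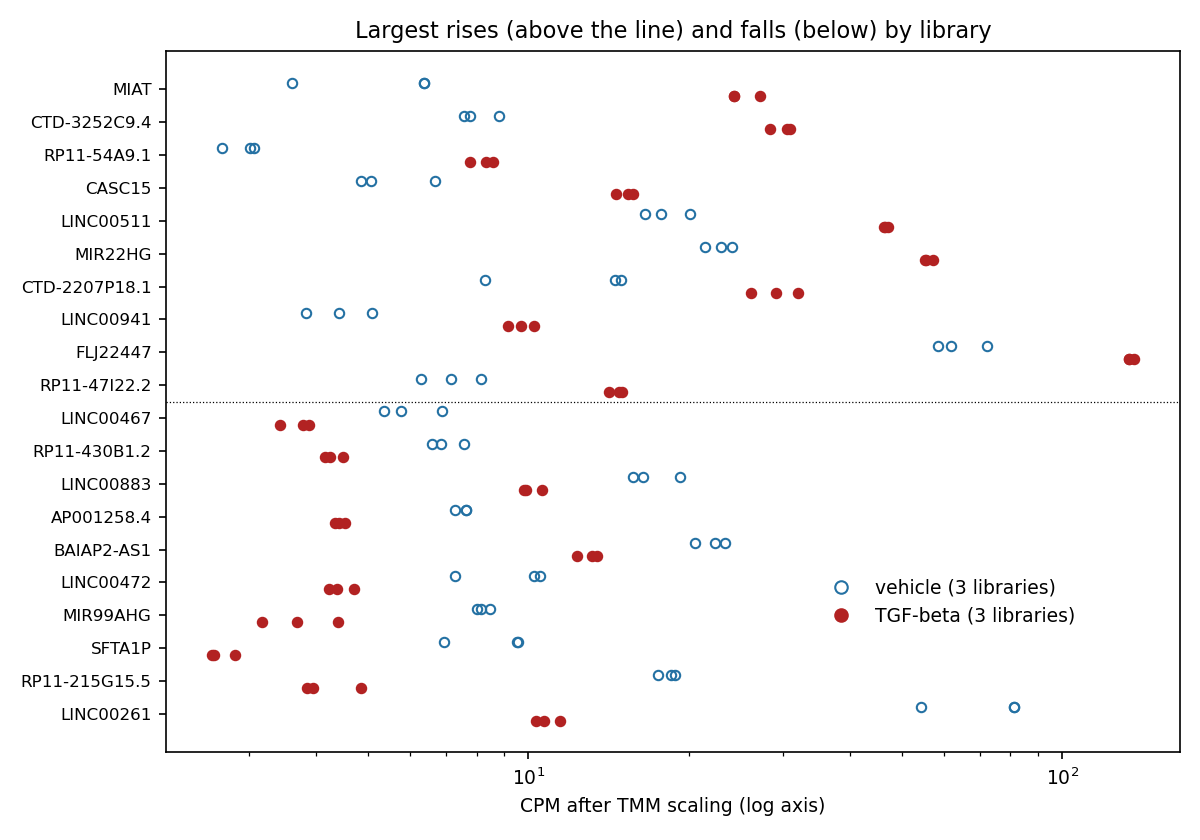
CPM by library, on a log axis, of the 10 largest rises (above the dotted line) and 10 largest falls (below it) that were called without overlap; open blue points are the 3 vehicle and filled red points the 3 TGF-beta libraries. In each row the colours stay apart, and for LINC00261, MIAT, SFTA1P, LINC00472 and CTD-2207P18.1 vehicle replicate 1 lies away from the other two vehicle points.

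The promoters of the largest fall, the largest rise and a rise with 3 SMAD-type motifs are shown, because these lincRNAs changed most or hold the motifs counted here. Sequences are RefSeq's (GRCh38.p14), 250 bases before to 50 after the start, 5′ to 3′ on the gene's strand, and capitals mark matches to CAGAC (the SMAD box) or TGTTTAC (a forkhead site) on either strand.
LINC00261, chr20:22578593-22578892, minus strand: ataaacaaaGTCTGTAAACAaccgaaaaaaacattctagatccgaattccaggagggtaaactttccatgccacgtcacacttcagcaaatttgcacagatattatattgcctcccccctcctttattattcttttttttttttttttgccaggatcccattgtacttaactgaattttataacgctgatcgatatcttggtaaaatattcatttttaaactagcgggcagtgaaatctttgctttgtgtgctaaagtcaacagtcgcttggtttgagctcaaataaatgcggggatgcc
MIAT, chr22:26646179-26646478, plus strand: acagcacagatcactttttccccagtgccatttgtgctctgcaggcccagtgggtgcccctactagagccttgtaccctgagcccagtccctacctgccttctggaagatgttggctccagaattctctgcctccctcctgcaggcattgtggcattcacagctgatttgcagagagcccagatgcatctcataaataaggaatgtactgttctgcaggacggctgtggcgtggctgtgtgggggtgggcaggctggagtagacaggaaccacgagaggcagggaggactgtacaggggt
CASC15, chr6:21666163-21666462, plus strand: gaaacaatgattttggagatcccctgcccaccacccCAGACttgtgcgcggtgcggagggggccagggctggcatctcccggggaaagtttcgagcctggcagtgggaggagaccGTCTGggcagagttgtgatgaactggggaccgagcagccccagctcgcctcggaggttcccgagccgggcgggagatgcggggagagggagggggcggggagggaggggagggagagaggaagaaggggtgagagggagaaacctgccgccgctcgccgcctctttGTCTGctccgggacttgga
The LINC00261 window, with 37% GC, held 1 match to each motif, and these overlap in 1 capital run. The CASC15 window held 3 matches to CAGAC and that of MIAT 0 to either. Another 3 lincRNAs held 3 matches to CAGAC, namely LINC00941 (higher), SNHG19 (lower) and LINC00263 (not called). CASC15 starts in RefSeq downstream of the start in the deposited table. Of the 152 lincRNAs 74 had a RefSeq promoter, and 48.6% of those held CAGAC, against 45.3% of all 35116 promoters of the same length. TGTTTAC was in 4.05% of them against 3.42%, and TGANTCA, the AP-1 site, in 6.76% against 7.71%. Of the 17 matched lincRNAs that were higher, 41.2% held CAGAC, of the 23 that were lower 47.8%, and of the 34 not called 52.9%. These shares lay near those of all promoters, and a match is a string of letters, not a bound site.

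Nuclear body RNAs did not move as one. NEAT1 had 539, 473 and 488 CPM in vehicle and 635, 678 and 600 CPM in TGF-beta libraries, and rose by 0.35 ± 0.06 on the log2 scale (SE, adjusted p = 0.00112). MALAT1, the adjacent gene on chromosome 11, had 493, 436 and 403 CPM in vehicle and 392, 383 and 312 CPM in TGF-beta libraries. Its log2 fold change of -0.29 ± 0.11 (SE) was not called (adjusted p = 0.0782), although the conditions did not overlap. It was called in 6 alternative fits, with values of -0.28 to -0.42. None of the fits that left out 1 library called it (edgeR, adjusted p = 0.0572 to 0.275). A second row named MALAT1, typed protein-coding, overlaps it. LINC00657 (NORAD), which binds PUMILIO proteins in the cytoplasm, is not on the list of nuclear body RNAs. It had 320, 319 and 315 CPM in vehicle and 283, 280 and 265 CPM in TGF-beta libraries, a fall of 0.21 (adjusted p = 0.00277). Of 5 lincRNAs on the list of nuclear body and chromatin-associated RNAs, NEAT1 and MIAT were higher, and MALAT1, LINC00152 and MIR4435-1HG were not called. Among all genes with at least 200 reads, 47.6% were called.

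RNAs that carry microRNAs are described with the mature sequences their spans hold. By RefSeq position, 9 of the 152 contained a mature miRNA on their strand and 2 more lay within 5000 bases of one. Of the 9, 3 were higher (MIR22HG, MIRLET7BHG and LINC00969), 3 lower (MIR99AHG, LINC00472 and RP3-331H24.5) and 3 not called (MIR4458HG, MIR4435-1HG and LINC00669), beside 47.6% called among all genes with at least 200 reads. The 12 sequences below belong to the hosts that changed most or share a seed with them. They come from RefSeq (GRCh38.p14), run 5′ to 3′, and have the seed, bases 2 to 8, in capitals.
hsa-miR-22-3p, in MIR22HG: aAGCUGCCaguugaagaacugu
hsa-miR-23a-3p, beside CTD-3252C9.4: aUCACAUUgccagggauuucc
hsa-miR-27a-3p, beside CTD-3252C9.4: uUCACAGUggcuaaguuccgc
hsa-miR-24-3p, beside CTD-3252C9.4: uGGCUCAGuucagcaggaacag
hsa-let-7a-5p, in MIRLET7BHG: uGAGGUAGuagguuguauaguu
hsa-let-7b-5p, in MIRLET7BHG: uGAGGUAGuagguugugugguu
hsa-let-7c-5p, in MIR99AHG: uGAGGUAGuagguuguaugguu
hsa-miR-4458, in MIR4458HG: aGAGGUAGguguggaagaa
hsa-miR-99a-5p, in MIR99AHG: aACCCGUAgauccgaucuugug
hsa-miR-125b-5p, in MIR99AHG: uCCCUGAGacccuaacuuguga
hsa-miR-30a-5p, in LINC00472 and RP3-331H24.5: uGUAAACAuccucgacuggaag
hsa-miR-30c-5p, in LINC00472 and RP3-331H24.5: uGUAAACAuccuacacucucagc
The let-7 seed GAGGUAG was shared by 4 of these RNAs, which lie in 3 hosts with different responses. MIRLET7BHG, with let-7a and let-7b, rose, MIR99AHG, with let-7c, fell, and MIR4458HG was not called. The seed GUAAACA was shared by miR-30a and miR-30c, whose 2 overlapping hosts both fell.

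MIR22HG, the host of miR-22 (chr17:1711493-1717174, minus strand), had 24.0, 21.5 and 22.9 CPM in vehicle and 55.2, 55.6 and 57.2 CPM in TGF-beta libraries. The change of 1.30 ± 0.05 (SE, adjusted p = 3.68e-08) was accompanied by 0.18 for WDR81, which overlaps it on the other strand. The MIR22 hairpin has its own row in the table, with 29, 34 and 32 reads in vehicle and 70, 93 and 80 in TGF-beta libraries. MIRLET7BHG had 15.4, 14.0 and 14.2 CPM against 21.7, 21.1 and 21.9 CPM, a change of 0.57 ± 0.06 (SE, adjusted p = 4.75e-05). Reads over its hairpins were too few to tell whether they moved alike. Hairpin reads here are raw counts, not scaled to depth and given without a test. MIR3619 had 33 reads over the 3 vehicle and 20 over the 3 TGF-beta libraries, MIR4763 16 and 47, MIRLET7A3 5 and 8, and MIRLET7B 12 and 17. For the hairpins beside CTD-3252C9.4, the 3 vehicle libraries together held 18 reads for MIR23A, 8 for MIR27A and 7 for MIR24-2, and the TGF-beta libraries 42, 18 and 27. MIR30C2 had 53 reads in vehicle and 21 in TGF-beta libraries, and RP3-331H24.5 changed by -0.32 (adjusted p = 0.0376). That call was lost when replicate 2 or 3 of either condition was left out (adjusted p = 0.0897 to 0.145). MIR99A had 0 reads in all libraries, MIRLET7C 1 and MIR125B2 4, so hairpin reads told nothing about the MIR99AHG cluster at this depth. These libraries count reads over the hairpin loci, and mature miRNAs were not measured.

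Hosts of small nucleolar RNAs (snoRNAs), which guide the modification of ribosomal RNA, changed little in size. Of 5 such lincRNAs 1 was higher, 3 were lower and 1, RP11-1094M14.11 (now SNHG30), was not called, beside 47.6% called among all genes with at least 200 reads. The median log2 fold change was -0.23. SNHG15 had 19.1, 20.3 and 20.3 CPM in vehicle and 22.7, 25.3 and 22.4 CPM in TGF-beta libraries, a change of 0.24 (adjusted p = 0.0133). The call was lost without TGF-beta replicate 2 (adjusted p = 0.076), with library totals alone, which gave 0.11 (adjusted p = 0.176), and with limma on RPKM (adjusted p = 0.096 and 0.0948). SNHG19 had 7.94, 7.98 and 9.42 CPM against 5.87, 6.55 and 6.52 CPM, a change of -0.42 (adjusted p = 0.0056). SNHG8 and EPB41L4A-AS1 each changed by -0.23. Their calls were lost in 4 of the 6 fits that left out 1 library, SNHG8 without vehicle replicates 2 and 3 and TGF-beta replicates 1 and 3 in turn (adjusted p = 0.0523 to 0.0831) and EPB41L4A-AS1 without vehicle replicate 2 or any 1 TGF-beta replicate (adjusted p = 0.0517 to 0.1). RMRP, the RNA of the RNase MRP enzyme, had 7.20, 5.67 and 6.73 CPM against 5.15, 4.30 and 4.90 CPM (log2 fold change -0.45, adjusted p = 0.0103). Without TGF-beta replicate 2 its adjusted p was 0.0589. No source used here says whether polyadenylated RNA was selected, and RMRP carries no poly(A) tail. A separate row for the RNase MRP RNA overlaps it.

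LincRNAs and their nearest protein-coding gene mostly changed in the same direction. The median gap over the 152 pairs was 894.5 bases. The neighbour was tested for 133 of them, and both partners were called in 53. Of these, 49 moved the same way, 26 up and 23 down, and 4 in opposite ways, which is 92.5% in the same direction. The 49 pairs held 46 different neighbours, since some lincRNAs share one. Among protein-coding genes with at least 200 reads and their own nearest protein-coding gene, 71.9% of 2444 pairs with both called moved the same way. Pairs whose spans overlap, and whose reads may be shared, were 22 of 22 in the same direction, against 84.5% among overlapping protein-coding pairs. Pairs without overlap were 27 of 31, or 87.1%, against 63.2% of 1441 such protein-coding pairs. In the 27 lincRNAs that start within 1000 bases of a gene on the opposite strand, both partners were called in 10, and 9 of these moved the same way. Over the 133 pairs Pearson's r of the log2 fold changes was 0.50 and Spearman's rho 0.59. The pairs share libraries and in part reads, so these are descriptions. Distances to the neighbour were not matched between lincRNA and protein-coding pairs. Without TGF-beta replicate 3 the count in the same direction was 32, and without TGF-beta replicate 2 or 3 the count in opposite directions was 2. Without vehicle replicate 1 it was 8.

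**Figure D4:**
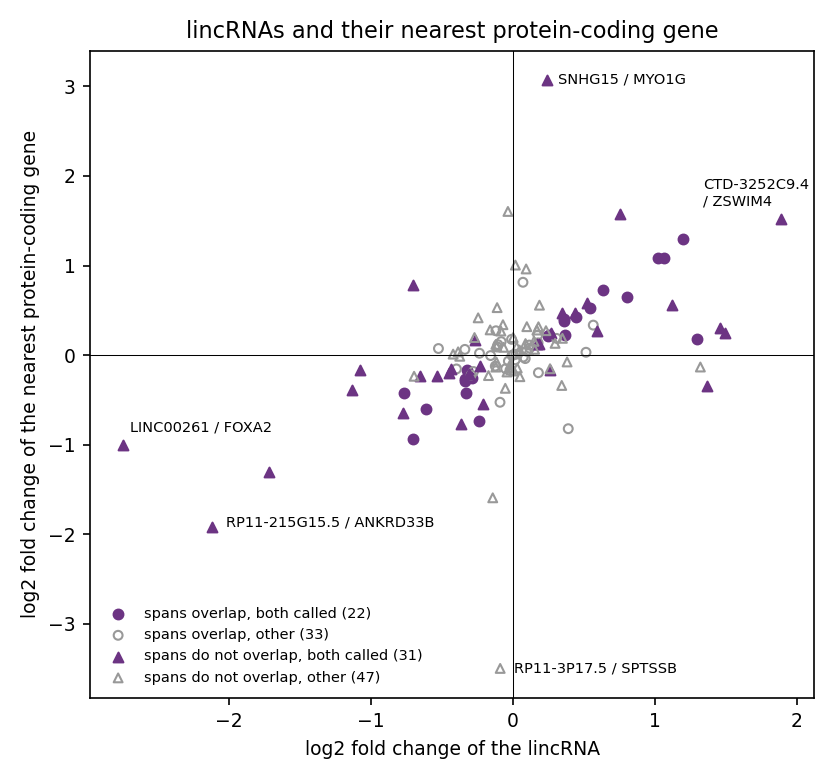
Log2 fold change of TGF-beta over vehicle of the lincRNA (horizontal) and of its nearest protein-coding gene (vertical) for the 133 tested pairs; circles are overlapping and triangles separate spans, filled where both genes were called and open otherwise. Filled points lie mostly in the lower left and upper right, with 4 in the other quadrants, and SPTSSB fell by 3.50 beside RP11-3P17.5 at -0.09.

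Neighbour pairs without overlap included LINC00261 with FOXA2 and RP11-215G15.5 with ANKRD33B, given above. CTD-3252C9.4 at 1.89 lay 2286 bases from ZSWIM4, a zinc finger gene that rose by 1.52 from 23.1 ± 2.7 to 66.3 ± 4.1 CPM (SD, n = 3). CASC15 at 1.46 lay 66153 bases from SOX4, a transcription factor gene known from EMT, which rose by 0.30 (adjusted p = 0.000202). LINC01184, now SLC12A2-DT, changed by -0.36 and SLC12A2, the sodium-potassium-chloride cotransporter gene, by -0.77. GAS6-AS2 changed by 0.44 and GAS6, the ligand of the TAM receptor kinases, by 0.47. NEAT1 at 0.35 lay 9249 bases from FRMD8, which rose by 0.47.

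Of the 4 opposite pairs, 3 are described. LINC00511 rose by 1.37 while SLC39A11, a zinc transporter gene 5477 bases away, fell by 0.35 (adjusted p = 0.00367). LINC00467 fell by 0.70 while TRAF5, a signalling adaptor gene, rose by 0.79 (adjusted p = 0.0247). RP11-384K6.6 rose by 0.26, a call lost without TGF-beta replicate 2 (adjusted p = 0.0723), and METTL14, a subunit of the RNA methyltransferase complex, fell by 0.17. In 28 pairs the neighbour alone was called and in 14 the lincRNA alone. SPTSSB, which encodes a small subunit of serine palmitoyltransferase, fell by 3.50 next to RP11-3P17.5, whose own change of -0.09 was not called. Without vehicle replicate 1 that change was -0.14 (adjusted p = 0.00987), and with library totals alone -0.21 (adjusted p = 0.0124), both called. MYO1G, a myosin gene at 0.0559 CPM in vehicle and 0.476 in TGF-beta libraries, had a fitted change of 3.07 beside the 0.24 of SNHG15, and at so few reads that value depends on the model's prior count.

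Genes for proteins that bind or process such RNAs mostly changed by small amounts. The values are of their RNA, and protein was not measured. Of 42 tested on a list of lincRNA partner proteins, 16 were higher and 3 lower. Among all genes with at least 200 reads, 24.2% were higher and 23.5% lower. The list's median log2 fold change was 0.06, beside -0.01 for all genes tested. Like the other lists, this one was chosen with earlier results known and trimmed after values were seen. Its counts are therefore a description. The largest rises were in IGF2BP1, at 41.8, 35.8 and 35.5 CPM in vehicle and 67.2, 69.9 and 68.8 CPM in TGF-beta libraries (log2 fold change 0.87, adjusted p = 2.62e-06), and IGF2BP3 (0.76). Both encode RNA-binding proteins that stabilise their targets, while IGF2BP2 was not called (-0.01). Of the NEAT1 partners in paraspeckles, SFPQ rose by 0.20, while NONO (-0.06) and PSPC1 (-0.10) were not called. PUM2, a PUMILIO protein bound by NORAD, fell by 0.11 (adjusted p = 0.0443). QKI, a splicing regulator induced in EMT, rose by 0.37. EZH1, a Polycomb methyltransferase, fell by 0.37, EZH2 changed by -0.04 without a call, and RNASEH2A fell by 0.22.

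Among the 77 lincRNAs not called, 71 had a log2 fold change within 0.3 of 0, and the whole group ran from -0.40 to 1.32. The largest was RP1-140K8.5, at 35.9, 14.0 and 15.1 CPM in vehicle and 54.2, 55.3 and 51.5 CPM in TGF-beta libraries. Every TGF-beta value lay above every vehicle value, but vehicle replicate 1 was over 2-fold above the other two, and the change of 1.32 ± 0.43 (SE) had an adjusted p of 0.0762. Without that library it was 1.88 (adjusted p = 2.77e-21). CH17-360D5.2 behaved alike, with 53.0, 30.9 and 30.5 CPM against 67.1, 61.9 and 64.8 CPM, a change of 0.77 that became 1.07 without vehicle replicate 1. Its neighbour CH17-360D5.3 was called at 0.99.

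LINC00152 (CYTOR) and MIR4435-1HG (now MIR4435-2HG), near-identical copies on chromosome 2 between which reads may be split, also turned on vehicle replicate 1. MIR4435-1HG had 31.6, 48.8 and 45.4 CPM in vehicle and 32.4, 31.6 and 33.3 CPM in TGF-beta libraries, and LINC00152 had 19.2, 29.9 and 29.6 CPM against 23.7, 24.1 and 26.9 CPM. Their changes of -0.37 and -0.08 were not called in edgeR (DESeq2 called that of MIR4435-1HG, adjusted p = 0.015), and without that library they were -0.54 and -0.26 (adjusted p = 2.7e-10 and 0.000352). RP11-91K9.1 was the reverse case, at 18.9, 9.03 and 9.04 CPM in vehicle and 9.31, 8.91 and 9.64 CPM in TGF-beta libraries, a change of -0.40 that was 0.04 without vehicle replicate 1, and not called in either fit. In all, 17 of the 77 were called once vehicle replicate 1 was left out, 9 of them higher and 8 lower. Of the 75 called lincRNAs, 55 kept their call and direction whichever 1 of the 6 libraries was left out, and the other 20 had an absolute log2 fold change of at most 0.45.

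Which lincRNAs count as well expressed depends on the read minimum. Just inside it were LINC00339 with a mean of 200 reads, RP6-65G23.3 with 200.3 and RP11-160O5.1 with 200.5. Just outside were LINC01270 with 198.8, RAB30-AS1 with 196.7 and TRAM2-AS1 with 196.2. Of the 126 lincRNAs with at least 200 reads in each condition, 36 were higher and 22 lower, with the limit of depth given above. Of the 60 lincRNAs that overlap no other tested gene, 12 were higher and 12 lower. The 24 are 40% of them, against 47.6% of genes with at least 200 reads and 40.1% of all genes tested. Of the lincRNAs that overlap a tested gene, 55.4% were called.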

How the data were processed

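Gene counts and RPKM for 3 vehicle and 3 TGF-beta H69 libraries were taken from 1 deposited table. Per the submitters' processing notes, the tools were bcl2fastq, STAR 2.6.1 and featureCounts of Subread, with build hg38. The authors deposited whole-number counts per gene, not normalized, and RPKM, which per the file headers scale counts by gene length and library size. Annotation release, strand setting and handling of multi-mapped reads are not given in the sources used here. Counts were tested in R 4.3.3 with edgeR 4.0.16 (TMM, filterByExpr with a minimum count of 10, robust quasi-likelihood test, Benjamini-Hochberg adjustment over the 20992 genes tested, call at an adjusted p under 0.05). The log2 fold changes are fitted values, with SE as their size divided by the square root of F. The steps were tested on simulated counts.

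The nearest protein-coding gene was found from the table's Start and End columns. Strand and exons came from GENCODE 29 by Ensembl identifier, and sequences from RefSeq. Named are the 10 largest called rises and falls without overlap, the 8 highest by RPKM, members of the role lists, those at the read minimum, and neighbours. Other names, such as RP1-140K8.5, RMRP, RP11-384K6.6, CH17-360D5.2 and RP11-91K9.1, were chosen after their values were seen. The lincRNAs and lists were chosen with earlier results of these data known, and lists were trimmed after values were seen. Some results are not reported here. Alternatives were other scalings and filters, DESeq2 1.42.0, limma 3.58.1 on log2 RPKM, a replicate block, leaving out each library, and other read minimums.

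Same-numbered libraries deviated from their group means with correlations of 0.0652, 0.0623 and 0.0129, so the numbers were not taken to pair samples. Libraries of 1 condition differed beyond counting error, their lowest chi-square being 2.48 times its degrees of freedom.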

Additional observations from a re-analysis of the deposited data

How the results depend on the processing

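Against 39 higher and 36 lower lincRNAs, the counts were 41 and 35 with RLE size factors, 28 and 53 when scaled to library totals, 38 and 39 with low counts kept, and 40 and 33 with DESeq2. Limma on log2(RPKM + 1) and on log2(RPKM + 0.1) gave 31 and 41 of the 141 lincRNAs with enough RPKM. With the replicate number as a block the counts were 39 and 36, with 51 neighbour pairs in the same and 4 in opposite directions. Leaving out 1 library gave 32 to 48 higher, 27 to 44 lower, 32 to 56 pairs in the same and 2 to 8 in opposite directions. Minimums of 100 and 500 reads gave 64 higher and 69 lower of 277, and 21 and 13 of 61. Chosen after seeing the data, a minimum in each condition gave 22 lower, and lincRNAs overlapping no tested gene gave 12 higher and 12 lower. Pairs without overlap were 27 in the same direction. Among 540 values of 39 named lincRNAs under these alternatives, 499 kept their side of the threshold, 29 lost a call and 12 gained one, and 0 turned a called direction. Depth limits the hairpin rows, which hold few reads.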
